A study of Mus musculus with 2 samples.

Results

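The imprinted Dlk1-Dio3 microRNA cluster was taken as every microRNA gene of the GENCODE M21 annotation on the plus strand of mouse chromosome 12 that lies wholly between 109540000 and 109760000 in mm10, from Meg3 to Mirg. This rule used position alone and gave 59 of the 2202 microRNA genes counted. Counts came from microRNA-seq of total RNA from the hearts of females of the hybrid strain B6CASTF1/J at 2 months of age. Such mice have a C57BL/6J and a CAST/EiJ parent. There were 2 libraries in 1 group and no contrasting condition, allele or treatment. The labels give the libraries separate replicate and animal numbers under a shared donor identifier, so differences between them may be technical. The spread between animals was not estimated, and p-values below hold counting error only. The counts do not separate the parental chromosomes, so imprinting itself was not measured.

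The Dlk1-Dio3 region is controlled by a differentially methylated region that is methylated on the paternal chromosome. Protein-coding genes such as Dlk1 and Rtl1 are read from the paternal chromosome. The maternal chromosome is read as long noncoding transcripts, Meg3, the RNA antisense to Rtl1, Rian and Mirg, from which the microRNAs are cut. The microRNAs opposite Rtl1 are perfectly complementary to its messenger RNA and repress it. The cluster is known for high levels in embryo, placenta and brain, and for lower levels in most adult tissues.

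Mature sequences are shown for the 10 detected members with the highest mean level, and for 1 more member that shares a seed with one of them, because the seed decides which messages a microRNA can bind. A hairpin can yield a product from its 5p and its 3p arm, and the deposited counts do not say which arm was read. Sequences are the arms listed by RefSeq on GRCm38.p6, the same assembly as mm10, 5′ to 3′, with the seed (bases 2 to 8) in capitals.
miR-127-5p: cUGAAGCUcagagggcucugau
miR-127-3p: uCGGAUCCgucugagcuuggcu
miR-411-5p: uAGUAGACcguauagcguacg
miR-411-3p: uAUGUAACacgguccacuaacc
miR-379-5p: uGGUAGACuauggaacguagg
miR-379-3p: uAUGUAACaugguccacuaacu
miR-1193-5p: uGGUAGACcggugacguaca
miR-541-5p: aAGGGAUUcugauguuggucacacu
miR-541-3p: uGGCGAACacagaauccauacu
miR-770-5p: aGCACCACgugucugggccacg
miR-770-3p: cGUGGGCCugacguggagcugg
miR-382-5p: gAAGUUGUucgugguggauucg
miR-382-3p: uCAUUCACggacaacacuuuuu
miR-487b-5p: uGGUUAUCccuguccucuucg
miR-433-5p: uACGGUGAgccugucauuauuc
miR-433-3p: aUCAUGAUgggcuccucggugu
miR-154-5p: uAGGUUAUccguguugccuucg
miR-154-3p: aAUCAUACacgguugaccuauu
miR-337-5p: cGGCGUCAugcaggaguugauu
miR-337-3p: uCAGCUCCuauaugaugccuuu

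Among these, the 3p arms of Mir379 and Mir411 shared the seed AUGUAAC, and the 5p arms of Mir379 and Mir1193 shared GGUAGAC. Across the cluster 57 of 59 members matched a mature sequence, 106 arms in all, which held 97 distinct seeds. Only 9 seeds were held by more than 1 member, and these groups took in 14 members. The cluster is thus a set of mostly different seeds, with small groups such as miR-376b-5p with miR-376c-5p and miR-410-5p with miR-494-5p. Of the arms, 42.5% began with U, against 41.3% of the 1738 mature sequences in the table.

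The members held 7953 of 2424441 own-strand microRNA counts in replicate 1, a share of 0.328% (0.321 to 0.335, Clopper-Pearson, exact, at 95%). The share in replicate 2 was 10147 of 2770301, or 0.366% (0.359 to 0.373), so the mean was 0.347% ± 0.0270 (SD, n = 2). Levels are given below in CPM, counts scaled to a library total of 1000000 own-strand microRNA counts, and all intervals cover counting error only. For a member with no count, the limit that 0 allows was 1.24 CPM in the first library and 1.08 CPM in the other. Of the 7 genes of the cardiac muscle list, 4 were detected, and the list held shares of 0.605% in replicate 1 and 0.858% in replicate 2. Reads with several map positions are assigned to no gene, so a list of genes with similar hairpins can lose counts. How many such reads belong to this list is unknown. Its shares can therefore be too low, and they give no rank against other lists.

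At least 10 counts in both libraries, taken as detection, were reached by 34 of the 59 members (57.6%), against a background of 13.9% of all 2202 genes. The tables assign no read with several map positions to a gene, so a gene whose hairpin has 20 identical bases in another microRNA hairpin can lose reads. Such a stretch was found in 8 members (13.6%) and in 48.9% of all genes. Among genes with no such stretch, 31 of 51 members (60.8%) were detected, against 21 percent (236 of 1126) overall. The detected members were low in level: their median mean CPM was 25.0, against 80.1 over all 306 detected genes, and 23 of 34 lay under 50 CPM. They span 180 kb from Mir770 to Mir369.

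**Figure D1:**
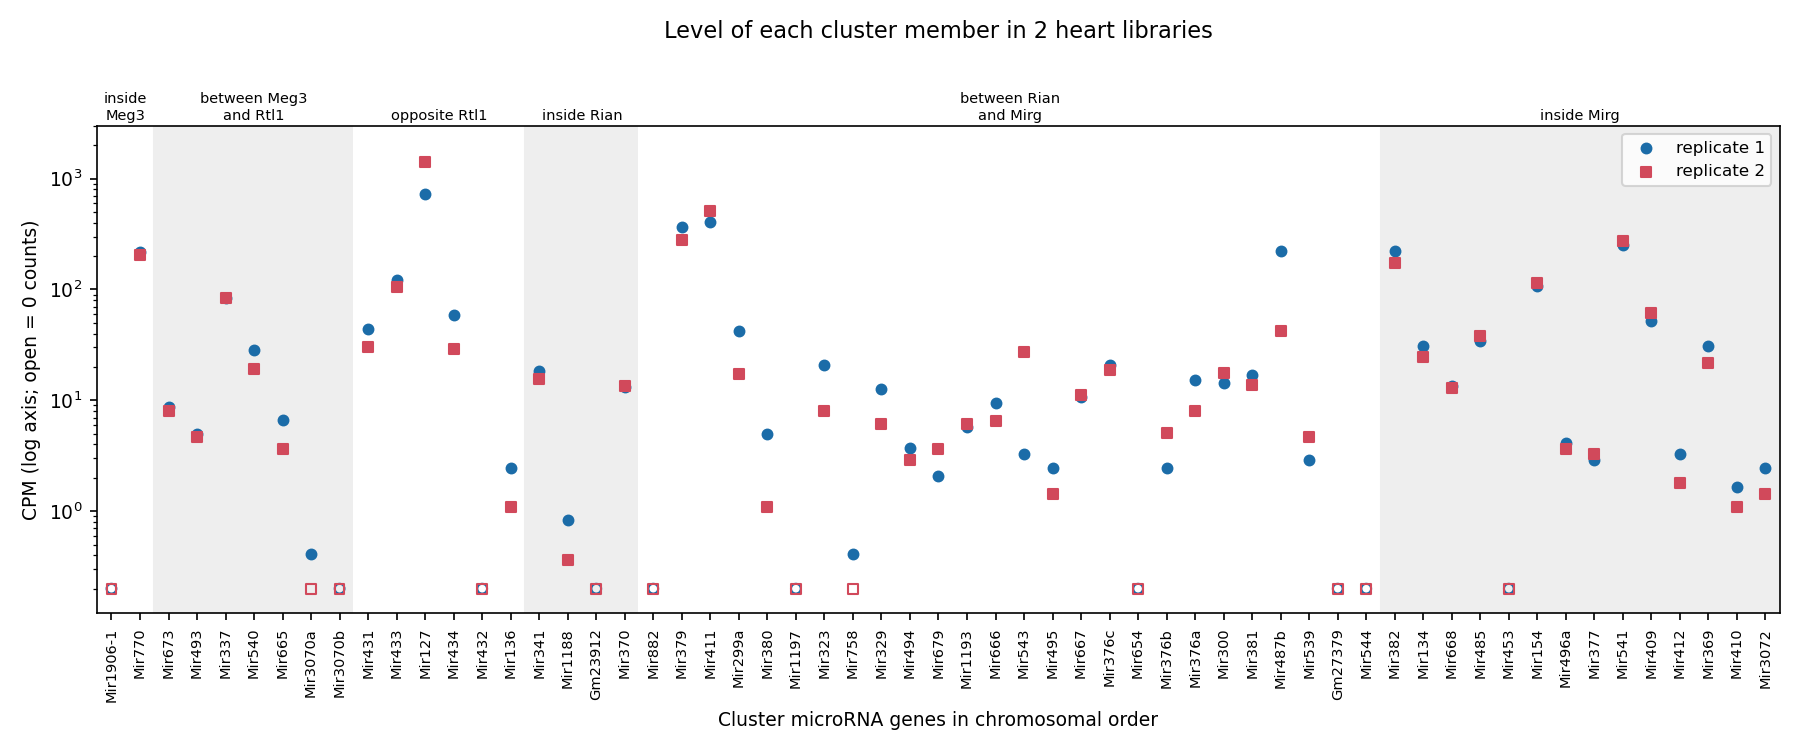
CPM of each of the 59 members in chromosomal order on a log axis, with circles for replicate 1, squares for replicate 2, open symbols for 0 counts, and shading by annotated block. Mir127 is the highest member in both libraries, at 730 and 1427 CPM, and 10 members have no count in either.

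The cluster's counts came mostly from a few members. The 8 with the highest mean held 77.3% of cluster counts in replicate 1 and 82.2% in replicate 2. Mir127, which lies opposite Rtl1 and represses it, had 1769 and 3954 counts, or 730 CPM in replicate 1 and 1427 CPM in replicate 2 (1078 ± 493, SD, n = 2). It ranked 65 among all genes by mean level and was the highest member in both libraries. Genes with similar hairpins can lose counts, so its rank among all genes is uncertain. Mir411 followed with 978 and 1401 counts (403 and 506 CPM), and its neighbour Mir379, the first member of the long distal array, with 885 and 779 counts (365 and 281 CPM). The hairpin of Mir411 shares 21 bases with that of Mir758 (1 and 0 counts), which take in 12 of 22 bases of miR-411-3p, so its level, its rank and its ratio to Mir379 are uncertain. Mir541 ranked 4 in both libraries with 616 and 751 counts (254 and 271 CPM). The ranges of these 4 members over the libraries did not overlap. Below them Mir770 (216 and 205 CPM), Mir382 (221 and 172 CPM) and Mir487b (224 and 41.9 CPM) overlapped, so no order can be given for these 3. The range of Mir487b also took in Mir433, Mir154 and Mir337, and Mir433 overlapped Mir154, so these pairs have no order either. Mir433, reported in cardiac fibrosis, stood at 122 and 106 CPM, Mir154 at 107 and 113 CPM, and Mir337 at 84.1 and 84.5 CPM.

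The 4 genes set as markers of the cluster, Mir127, Mir411, Mir541 and Mir487b, were all detected. They made up 0.161% of counts in replicate 1 and 0.225% in replicate 2. In mm10 on chromosome 12, Mir127 lies at 109592846 to 109592915 and Mir411 at 109710175 to 109710256. Mir487b lies at 109727333 to 109727414, between Rian and Mirg, and Mir541 at 109742409 to 109742498, in an intron of Mirg.

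By position the members fell into 6 blocks. Inside Meg3 lay Mir770 and Mir1906-1, both exonic, and only Mir770 was detected. Mir770 alone carried that block's 523 and 568 counts, 6.58% and 5.60% of the cluster. Mir1906-1 had 0 counts in both libraries, and its mature sequence occurs whole in the hairpin of Mir1906-2, so its level is uncertain. Between Meg3 and Rtl1, 5 of 7 members were detected, and the block held 4.06% and 3.27% of cluster counts. Mir337 carried most of it, with 204 and 234 counts. Mir540 had 69 and 53, and Mir673, Mir493 and Mir665 had between 10 and 22 counts per library. Mir3070a and Mir3070b, which share 1 whole arm, had at most 1 count.

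Opposite Rtl1, in the microRNA genes that can silence it, 4 of 6 members were detected. The block held 29.1% of cluster counts in replicate 1 (28.1 to 30.2) and 43.5% in replicate 2 (42.6 to 44.5). Mir127 alone held 22.2% and 39.0%. After Mir127 came Mir433 with 295 and 294 counts, Mir434 with 142 and 81, and Mir431 with 106 and 84. Mir136 had 6 and 3 counts and Mir432 none. Levels within this block thus ran from 0 counts to the highest of the cluster, over hairpins cut from the same antisense transcript.

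Inside Rian, in introns otherwise rich in small nucleolar RNAs, the 4 members held only 0.993% and 0.798% of the cluster's counts. Mir341 had 45 and 43 counts and Mir370, known to target Cpt1a, the carnitine palmitoyltransferase of fatty acid oxidation, had 32 and 37. Mir1188 had 2 and 1, and Gm23912 had 0.

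Between Rian and Mirg lay the largest block, with 26 members, of which 13 were detected. It held 36.1% of cluster counts in replicate 1 (35.0 to 37.2) and 27.0% in replicate 2 (26.1 to 27.9). Mir379 and Mir411 carried more than the other 24 members together in each library. Mir299a stood at 42.1 and 17.3 CPM and Mir381 at 16.9 and 13.7. Mir323 had 51 and 22 counts. Mir376c had 51 and 52, but its hairpin shares 31 bases with that of Mir376b, which take in 18 of 22 bases of its arm miR-376c-5p, so its level is uncertain. Mir329, which with Mir487b, Mir494 and Mir495 is known from work on vessel growth after ischaemia, stood at 12.8 and 6.14 CPM. Mir494 (9 and 8 counts) and Mir495 (6 and 4 counts) were not detected. Mir300, Mir376a, Mir667, Mir666 and Mir1193 had between 14 and 49 counts per library.

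Inside Mirg 9 of 14 members were detected, with 23.1% and 19.8% of cluster counts. Below Mir541, Mir382 and Mir154 came Mir409 at 52.4 and 61.4 CPM, and Mir485 at 34.6 and 38.3 CPM. Mir134, which limits dendritic spine growth in neurons, stood at 30.9 and 24.5 CPM. Mir369 stood at 30.9 and 21.7 CPM, Mir668 at 13.6 and 13.0, and Mir496a, the detected member with the lowest mean, at 4.12 and 3.61. Mir377, Mir412, Mir410 and Mir3072 had between 3 and 9 counts per library, and Mir453 had none.

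**Figure D2:**
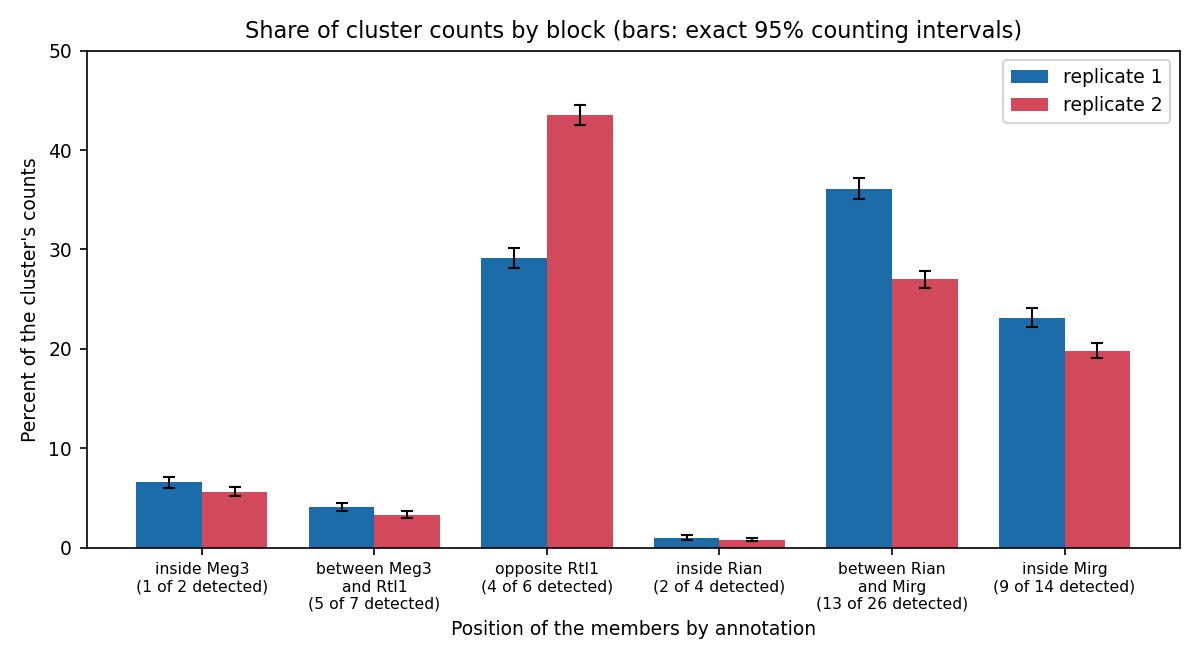
Percent of the cluster's counts in each annotated block, in replicate 1 (blue) and replicate 2 (red), with exact 95% counting intervals. The block opposite Rtl1 goes from 29.1% to 43.5%, and the block between Rian and Mirg from 36.1% to 27.0%. Within them, Mir127 alone goes from 22.2% to 39.0% and Mir487b from 6.83% to 1.14%. All shares are of the same total, so a rise in any block lowers the others.

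Of the 25 members not detected, 10 had no count in either library and 15 had a few. The members nearest to detection on the upper side were Mir496a (10 and 10 counts), Mir665 (16 and 10) and Mir493 (12 and 13). On the lower side were Mir494 (9 and 8), Mir539 (7 and 13) and Mir543 (8 and 76). By the lower of its counts, Mir377 (7 and 9) tied with Mir539. Undetected members together held 1.11% and 1.51% of the cluster's counts. Detected members had a median hairpin GC content of 51.6% and the others 46.3%, with 47.9% over all members and 50.8% over all genes.

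Strand mattered for 7 members, whose hairpins overlap an annotated microRNA gene on the minus strand. Those are Mir337, Mir136, Mir299a, Mir380, Mir376a, Mir539 and Mir409. The 7 minus-strand genes of the window had 0 counts on their own strand in both libraries, while 495 and 493 reads lay on their opposite strand. The members had 0 opposite-strand counts, so all of the region's counted microRNA reads came from the plus strand, the strand of Meg3, Rian and Mirg. In the either-strand column these members have 0 counts because their reads are ambiguous there.

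The libraries were then compared member by member, which asks how far the cluster's profile held from one sample to the other. Each gene's counts were set against the library totals in an exact binomial test, two-sided, and p-values were adjusted by Benjamini-Hochberg over the 306 detected genes. It compares 2 libraries and no conditions. A gene was called at an adjusted p under 0.05 with a fold of at least 1.5. By this rule 7 of 34 detected members (20.6%) differed, against 36.6% of all detected genes. Of these, 1 was higher in replicate 2 (background 11.1%) and 6 were lower (background 25.5%). By level, the counts at a mean under 50 CPM were 5 of 23 members (21.7%) against 33.8% of all detected genes. At 50 CPM or more they were 2 of 11 (18.2%) against 38.6%. These differences in share were not tested, nor was the part of level in them.

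Mir127 was the member higher in replicate 2, 1.96-fold (exact interval 1.85 to 2.07, adjusted p = 2.4e-129 by the binomial test). Mir487b was the furthest apart in the other direction. It fell from 543 counts to 116, and was 5.35-fold lower in replicate 2 (4.37 to 6.59, adjusted p = 2.9e-79 by the same test). It moved from rank 5 to rank 11 among members. Its hairpin shares 20 bases with that of Mir376b, which had 6 and 14 counts, so both levels are uncertain. That stretch takes in at most 4 of 21 bases of the only arm listed for Mir487b, miR-487b-5p. No 3p arm is listed for it, and the counts do not say which arm was read. Mir434 was 2.00-fold lower (142 and 81 counts, 1.51 to 2.67), Mir299a 2.43-fold lower (102 and 48 counts, 1.71 to 3.50) and Mir323 2.65-fold lower (51 and 22 counts, 1.58 to 4.59). Their largest adjusted p by the binomial test was 0.000187, for Mir323.

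Mir329 (31 and 17 counts, 2.08-fold lower, adjusted p = 0.024 by the binomial test) and Mir376a (37 and 22 counts, 1.92-fold lower, adjusted p = 0.031) were the other called members. Neither passed the test with TMM or DESeq2 factors, nor with the deeper library thinned to the depth of the other. A further 5 members passed the adjusted p but not the fold, Mir411 higher and Mir379, Mir382, Mir431 and Mir540 lower in replicate 2. By adjusted p alone 12 of 34 (35.3%) thus differed, against 61.1% of all detected genes. The other 22 did not pass. Mir543 had 8 counts in replicate 1 and 76 in replicate 2, an 8.31-fold ratio (4.01 to 20.0), and was left out of the test by its count in replicate 1. With at least 5 counts required it passed, at an adjusted p of 1.1e-12 by the binomial test over 355 genes.

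**Figure D3:**
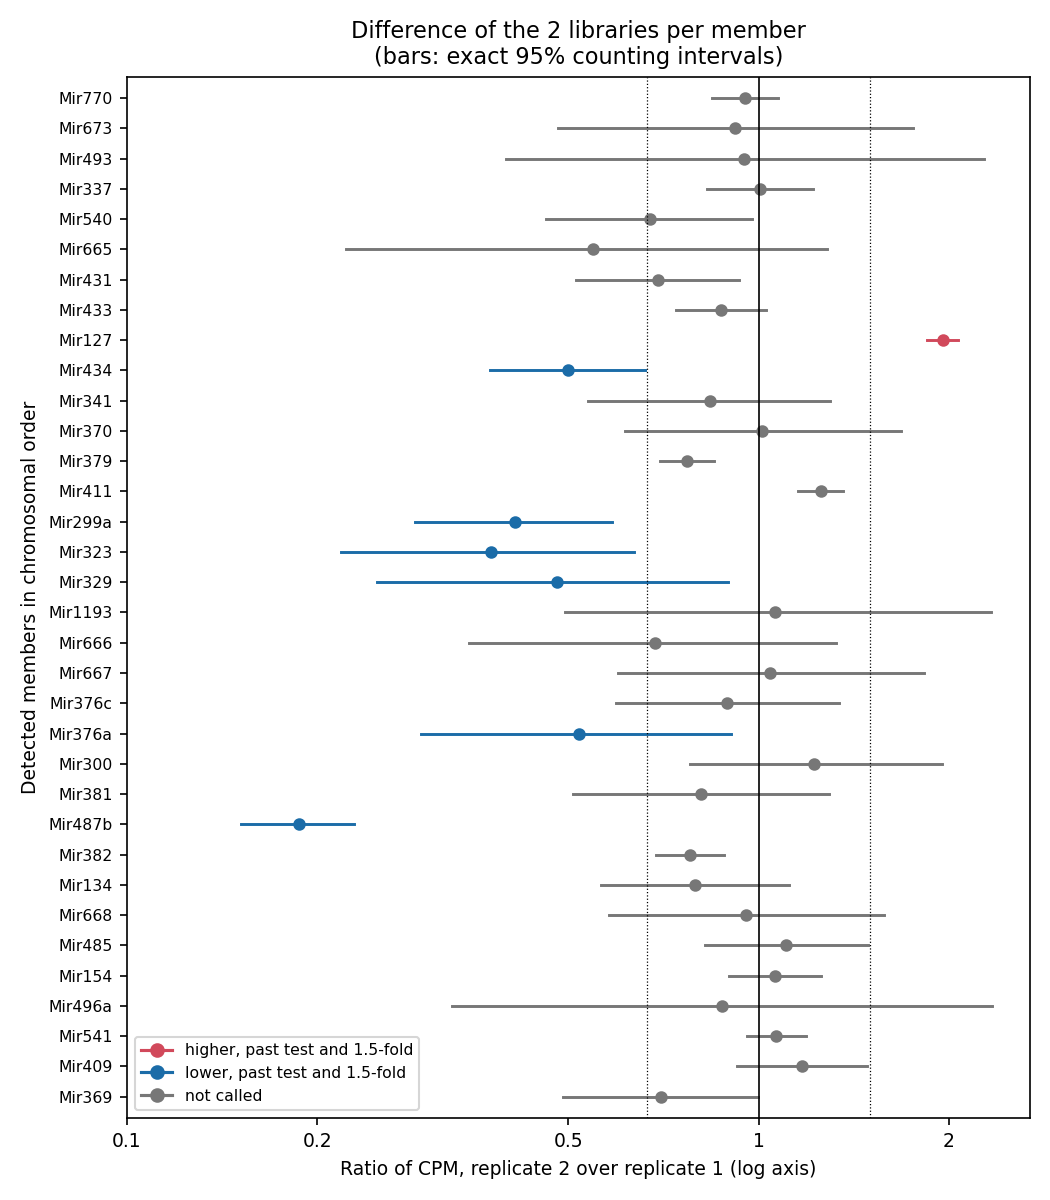
Ratio of CPM in replicate 2 over replicate 1 on a log axis for the 34 detected members in chromosomal order, with exact 95% counting intervals and dotted lines at the 1.5-fold limits. Mir127 lies to the right (1.96) and 6 members to the left, with Mir487b furthest out.

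In the block opposite Rtl1 and in that between Rian and Mirg, members did not share a ratio. Opposite Rtl1, Mir127 and Mir434 are next to each other, and Mir127 was higher while Mir434 was lower. The ratio of Mir127 to Mir434 counts was 12.5 in replicate 1 (10.5 to 14.9) and 48.8 in replicate 2 (39.2 to 61.6), a 3.92-fold difference that does not depend on library scaling. Mir411 to Mir379, also neighbours, went from 1.11 (1.01 to 1.21) to 1.80 (1.65 to 1.97). Across blocks, Mir541 inside Mirg to Mir487b between Rian and Mirg went from 1.13 (1.01 to 1.28) to 6.47 (5.32 to 7.94). The ratio of Mir409 to Mir541, both in Mirg introns, was 0.206 (0.169 to 0.250) and 0.226 (0.191 to 0.268), with intervals that overlap. These pairs were chosen after their values were seen.

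By block, the 6 lower members were Mir434 opposite Rtl1 and 5 of 13 detected members between Rian and Mirg, against a background of 25.5% lower calls over all detected genes. With TMM or DESeq2 factors, or totals without Mir451a, Mir329 and Mir376a drop out, which leaves 3 of 13 (Mir299a, Mir323 and Mir487b), against backgrounds of 15%, 16% and 19.6%. None of the 9 detected members inside Mirg was called, against 36.6% of all detected genes in either direction, and their log2 ratios ran from -0.51 to 0.23. By adjusted p alone Mir382 passed among them. None of the 8 detected members inside Meg3, between Meg3 and Rtl1, and inside Rian was called, and Mir540 passed by adjusted p alone. Whether blocks differ in this was not tested. Neighbouring detected members differed in log2 ratio by a median of 0.35 over 33 pairs, against 0.47 over all 561 pairs, which is a description and not a test.

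The cluster's total was 1.12-fold higher in replicate 2 (1.08 to 1.15), a direction that rests on Mir127. Without Mir127 the total was 0.876 of that in replicate 1 (0.846 to 0.908), but 1.02 with TMM factors and 1.00 with DESeq2 factors, so no direction held for the other members. The median log2 ratio of detected members was -0.19, equal to the -0.19 over all 306 detected genes. TMM factors shift all ratios by 0.22 and DESeq2 factors by 0.19. With either, Mir127 stayed called as higher, and Mir434, Mir299a, Mir323 and Mir487b as lower, while the backgrounds became 17% higher and 15% lower with TMM, and 15.7% and 16% with DESeq2.

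**Figure D4:**
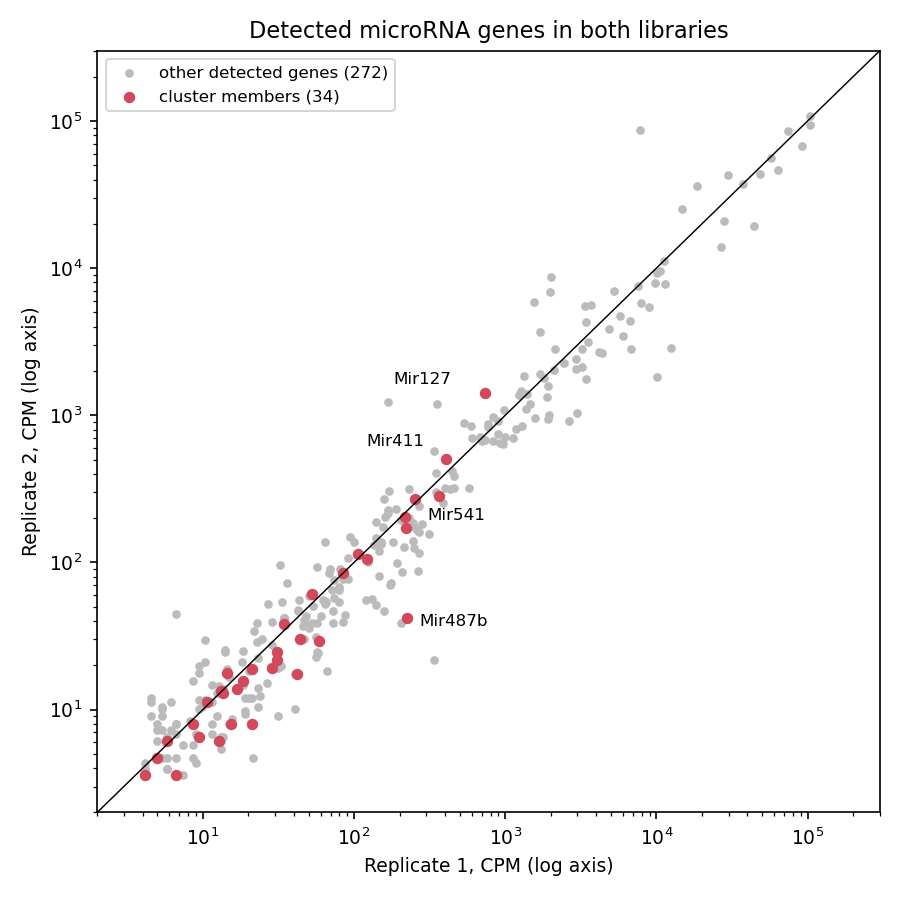
CPM of the 306 detected microRNA genes in replicate 2 against replicate 1 on log axes, with the 34 cluster members in red, the other genes in grey and the line of equal level. Members follow the line over the lower part of the range, with Mir127 above it and Mir487b below.

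Levels of the 34 detected members correlated between the replicates with a Pearson's r of 0.959 on the log2(CPM + 1) scale and a Spearman's rho of 0.961. Over all 306 detected genes they were 0.974 and 0.964. These are correlations across genes of the same 2 libraries and are given as description. The SD of the log2 ratio was 0.62 over members and 0.83 over all detected genes, and 29 members (85.3%) lay within 2-fold, against 81.4% of all.

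Marker lists of other cell types also differed between the libraries. The erythroid list (3 of 3 genes detected) held 1.15% and 9.56% of counts, the fibroblast list (4 of 6 detected) 1.13% and 0.259%, and the leukocyte list (4 of 5 detected) 0.549% and 0.424%. The neuron list (6 of 12 detected, 4 at 0 in both libraries) held 0.0385% and 0.0197%. Of its 934 and 545 counts, Mir128-1 alone had 642 and 243. The hairpin of Mir128-1 shares at least 20 bases with that of Mir128-2, so the share of this list can be too low. The skeletal muscle list (2 of 2 detected) held 0.0272% and 0.0165%. Nearly all of this was Mir206, with 650 and 446 counts. Mir133b had 10 and 12, and its hairpin shares at least 20 bases with those of Mir133a-1 and Mir133a-2, so it can lose reads. Endothelium (3 of 4 detected) held 7.70% and 8.82%, smooth muscle and pericyte (2 of 2 detected) 5.07% and 4.45%, and liver (1 of 1) 0.00404% and 0.00173%. The part of these differences in the ratios of the members was not tested. In whole tissue, fewer cells of a type and less of a microRNA per cell cannot be told apart. With Mir451a, the erythroid microRNA, left out of the library totals, Mir127 stayed higher and Mir434, Mir299a, Mir323 and Mir487b lower, and the cluster total was 1.21-fold higher in replicate 2 (background 13.1% higher and 19.6% lower).

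Of the 7 microRNA genes listed for other imprinted loci, 4 were detected, and together they held 0.125% and 0.0823% of counts. Mir335, in an intron of the imprinted Mest, led with 2328 and 1759 counts and was 1.51-fold lower in replicate 2 (adjusted p = 7.4e-39 by the binomial test). Mir298 had 507 and 240 counts and was 2.41-fold lower. Mir483, in an intron of Igf2, had 81 and 148 counts and was 1.60-fold higher, and Mir296 (103 and 131 counts) did not pass the binomial test. Mir675, made from H19, had 0 and 1 counts. The microRNA genes inside Sfmbt2, another imprinted array, numbered 119, of which 6 were detected, and held 0.0894% and 0.121% of counts. The Dlk1-Dio3 members held a higher share than these in each library, with counting intervals that do not overlap. Many Sfmbt2 hairpins are near copies of each other, so their counts are uncertain.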

How the data were processed

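The deposited tables hold raw counts of reads per microRNA gene, with no normalization, in 3 columns identified from their values (either strand, own strand, opposite strand). The assembly is mm10 per the labels and the annotation GENCODE M21 per the text deposited with the tables; no source used here names the aligner, counter or trimming. The first 4 lines name no gene. They held 70.0% and 65.3% of reads and were left out, and reads that mapped to several places made up 49.5% and 42.7% of all reads. Reads of the CAST/EiJ chromosome were placed on a C57BL/6J assembly, and the effect was not tested.

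CPM used own-strand totals of 2424441 and 2770301 counts. Named are all detected members, the 4 markers, the 3 members just below detection, and listed genes. Members, lists and rules were chosen with earlier results of these data known. Alternatives were the strand column, count filters, scaling, thinning, folds, denominators, members without shared bases, and each replicate alone. Blocks follow the host coordinates in GENCODE M21, also where these differ from the planned list of hosts. RefSeq hairpins of 54 members have the same coordinates. Python 3.11.15, scipy 1.17.1, R 4.3.3, edgeR 4.0.16 and DESeq2 1.42.0 were used.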

Additional observations from a re-analysis of the deposited data

Results flagged for a closer look

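Reads that mapped to several places numbered 3992614 in replicate 1 and 3410568 in replicate 2. They are given here because they lie outside the counts per gene. The tables do not say which genes they came from, so how many belong to the cluster is unknown.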

How the results depend on the processing

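The number of detected members was 34, and lay between 28 and 41 under the 5 alternatives run, each within 1.5 times. The number of members called was 7, and 4 with either-strand counts or 12 by adjusted p alone. It lay between 5 and 8 under the other alternatives. Members lower in replicate 2 numbered 6, but 3 with either-strand counts and 10 by adjusted p alone. Members higher numbered 1, but 2 with at least 5 counts, with no filter or by adjusted p alone, and 0 at a fold of at least 2, since Mir127 was 1.96-fold higher. The median log2 ratio of members, -0.19, became -0.046 with either-strand counts, -0.30 with no filter, -0.075 with totals without Mir451a and -0.0041 with DESeq2 factors, and reversed to 0.024 with TMM factors, as all genes shift together. The share of counts, 0.347%, became 0.441% with either-strand counts, 0.286% without members that share bases and 0.113% of all reads, and 0.328% to 0.366% in each replicate alone. Leaving out members that share bases, which removes Mir411 and Mir487b, changed the block shares of the cluster, given as means over the libraries. They became 7.42% inside Meg3 (from 6.09%), 4.46% between Meg3 and Rtl1 (from 3.67%) and 44.0% opposite Rtl1 (from 36.3%). The others became 1.09% inside Rian (from 0.896%), 16.9% between Rian and Mirg (from 31.5%) and 26.2% inside Mirg (from 21.5%). With either-strand counts the block between Meg3 and Rtl1 fell to 1.31%, since Mir337 is then ambiguous. No paired analysis was possible because the labels give 1 group.

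The 2 libraries give no estimate of the spread between animals for a single member. At 10 counts a member's ratio has a wide counting interval, 0.327 to 2.34 for Mir496a, so differences of 2-fold were not detectable at this depth for the lowest members.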
